A study of Mus musculus with 4 samples.

Results

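In all, 34 genes of amino acid synthesis, amino acid transport and the stress response that controls them were followed in C2C12 myoblasts, a mouse muscle precursor line. They were chosen by name as genes linked to the transcription factor ATF4. No measured value entered the rule, but earlier results of these data were known when it was made. All 34 were found among the 49585 genes counted, and all 34 had enough counts to be tested, among 15078 genes tested in all. Messenger RNA was read in 4 libraries of proliferating cells, 2 from cells transduced with an empty pLXSN retrovirus and 2 from cells transduced to overexpress C/EBPβ, a leucine-zipper transcription factor. Both groups are of C3H strain origin, were kept in medium with 10% serum, went through 7 days of G418 at 1200 μg/ml, were pooled as stable cells and then grew for 48 h. The labels do not say whether replicates came from separate transductions, so each p-value reflects the spread among these 4 libraries, part or all of which may be technical.

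When amino acids run short or proteins misfold, kinases such as PERK (Eif2ak3) phosphorylate the translation factor eIF2α. Bulk protein synthesis slows while the messenger RNA of ATF4 is translated better, so that ATF4 protein can rise with no change in its RNA. ATF4 pairs with C/EBP proteins on a composite DNA element, made of part of a C/EBP site and part of an ATF site, and switches on enzymes that make serine, glycine, asparagine and proline, carriers that import amino acids, and feedback genes. These RNA data do not measure ATF4 protein or eIF2α phosphorylation.

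The composite element is shown first because the members are known for it. RefSeq promoters on GRCm38.p6, from 250 bases before to 50 after an annotated start, were at hand for 28 of the 34 members. These 28 genes had 34 such promoters, as some have more than 1 start. A start need not be the outer end of the counted gene. That of Nupr1 lies inside it (chr7:126623249-126630861, minus strand), as does that of the Slc6a9 match below (chr4:117834506-117875198, plus strand). The letters TGATGNAA, read on both strands, were found in 7 of these 28 genes (25%) and in 4.51% of the 27025 genes with a promoter in the same table. In the stretches below, read 5′ to 3′ on the gene's strand, capitals mark TGATGNAA or its reverse complement, with distances from the first transcribed base.
Chac1 (chr2:119351029-119351076, plus strand): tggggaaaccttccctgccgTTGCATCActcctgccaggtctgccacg
Slc7a11 (chr3:50443633-50443699, minus strand): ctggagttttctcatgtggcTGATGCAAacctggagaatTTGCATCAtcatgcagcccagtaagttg
Asns (chr6:7693210-7693252, minus strand): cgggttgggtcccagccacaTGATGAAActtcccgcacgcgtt
Nupr1 (chr7:126625553-126625600, minus strand): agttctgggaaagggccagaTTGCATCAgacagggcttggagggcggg
Slc1a4 (chr11:20332710-20332737, minus strand): cctccagcgtgcctcctgcgTTGCATCA
Pycr1 (chr11:120643824-120643871, minus strand): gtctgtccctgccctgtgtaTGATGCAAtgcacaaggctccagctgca
Got1 (chr19:43524680-43524727, minus strand): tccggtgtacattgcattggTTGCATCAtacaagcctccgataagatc
The letters begin at position -193 in Chac1, -66 and -47 in Slc7a11, -23 in Asns, -110 in Nupr1, -4 in Slc1a4, -103 in Pycr1 and -102 in Got1. Asns carries TGATGAAA, and the others carry TGATGCAA on one strand or the other. A match of letters is a description of the window and not a shown binding site.

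The C/EBP core TTGCNNAA was found on either strand in 3 of the 28 members (Pycr1, Slc6a9 and Slc7a11, 10.7%) and in 12.2% of all genes. The CRE letters TGACGTCA, the same on both strands, were in 1 member, Ppp1r15a, and in 2.03% of all genes. Genes with the composite letters did not share a direction with C/EBPβ. Among them Chac1, Asns and Got1 fell, Slc1a4 and Pycr1 rose, and Nupr1 and Slc7a11 passed in neither direction. With only the 250 bases before the start, the composite letters were in 6 of 28 members and in 3.91% of all genes.

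C/EBPβ cells had less RNA for serine synthesis, for several other amino acid enzymes and for the carriers Slc7a5, Slc7a1 and Slc38a1, while Atf4 itself did not pass the test. Of the 34 members 12 fell, against 10.8% of all tested genes, and 3 rose, against 14.1%. In either direction this made 15 of 34 members against 24.9% of all tested genes. The test was edgeR's quasi-likelihood test, and each adjusted p given here is from it, corrected by Benjamini-Hochberg over all genes tested, unless another tool is named. The median log2 fold change of the members was -0.18, and 0.00055 over all tested genes. No fall reached 2-fold, which 3.46% of all tested genes did, and 1 rise did (Cbs), as did 6.24% of all tested genes. In 22 members both C/EBPβ libraries lay below both empty vector libraries, in 6 above, and in 6 the groups overlapped, against 32.9% below and 33.3% above (66.2% either way) over all tested genes. Without C/EBPβ replicate 1, 8 members fell, and 6.20% of all tested genes (966 of 15587) were lower.

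**Figure D1:**
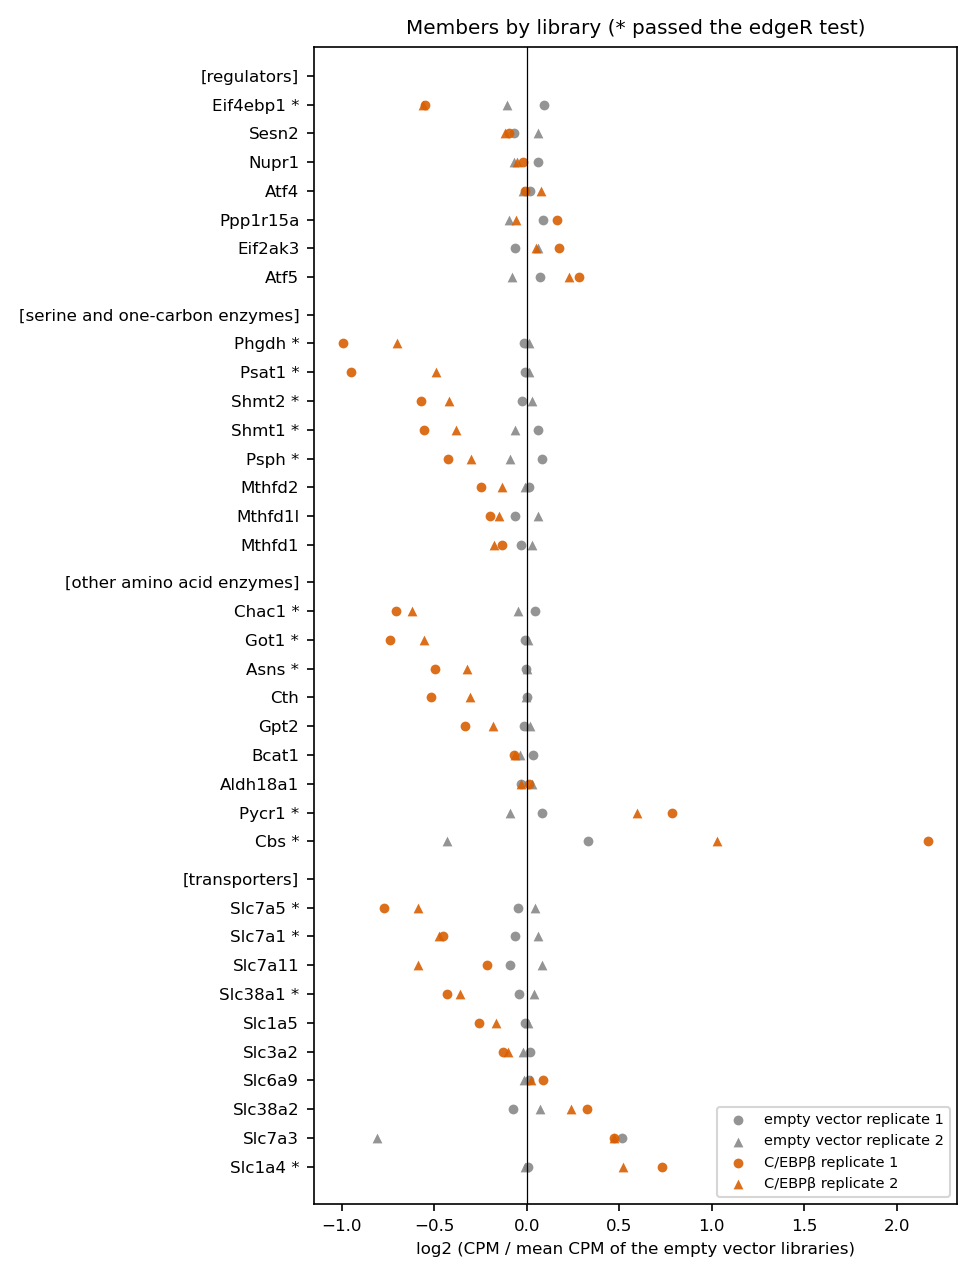
Each point is 1 library's level of 1 member, as log2 of its CPM over the mean of the empty vector libraries (grey), with C/EBPβ libraries in orange and an asterisk at members that passed. Orange points of all 8 serine and one-carbon enzymes lie left of the grey ones, whereas at Atf4 1 orange point lies between the grey ones and 1 to their right.

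Cebpb, the overexpressed gene, stood at 85.0 and 76.8 CPM in the empty vector libraries and at 483 and 473 CPM with C/EBPβ (CPM being counts scaled to a common library size with the TMM factor). The libraries held between 37566321 and 92027838 counts, the deepest being C/EBPβ replicate 2. All 8 myoblast markers were detected in every library, and 6 of them were lower and 2 (Myf5 and Pax7) higher with C/EBPβ. Their summed level was 3341 and 3632 CPM against 1877 and 2191 CPM. Of 8 macrophage and leukocyte markers, 4 had 0 counts in all libraries (Adgre1, Tyrobp, Itgam and Cd3e), and the list's sum was 5.93 and 5.21 against 15 and 12.6 CPM. In that list Lyz2 rose from 0.146 and 0.0529 to 7.50 and 4.88 CPM and Csf1r also passed as higher, while Cd68 did not pass. Sums of 5 adipocyte markers were 0.243 and 0.132 against 10.2 and 5.63 CPM and of 5 endothelial markers at most 0.588 CPM. Most of the adipocyte sum with C/EBPβ was Fabp4, at 9.38 and 5.31 CPM. Adipoq had 0 counts in both C/EBPβ libraries, and Plin1, Cidec and Retn had too few to be tested. Of 6 fibroblast markers 4 rose, among them Pdgfra from 10.5 and 9.44 to 69.9 and 48.3 CPM and Mfap5 from 1.58 and 0.793 to 19.3 and 13.0 CPM, the others being Dpt and Pi16. Their list's sum was 334 and 298 against 380.4 and 316 CPM, most of it Ly6a, which did not pass and stood at 321 and 286 against 288 and 251 CPM. The part of these shifts in the members' values was not tested, and fewer cells with a transcript cannot be told apart from less transcript per cell.

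The regulators come first. Atf4 (chr15:80255184-80257540, plus strand of GRCm38), the factor at the centre of the response, stood at 459 and 448 CPM with empty vector and at 450.1 and 478 CPM with C/EBPβ. The groups overlapped, and the log2 fold change was 0.03 (SE 0.09, adjusted p = 0.826). Atf5, a relative of Atf4 that is also controlled at translation, stood at 188 and 169 against 217 and 209 CPM. Both C/EBPβ libraries were above both controls, yet the log2 fold change of 0.26 missed the threshold (SE 0.09, adjusted p = 0.0680). It passed with DESeq2 (adjusted p = 0.0480) and when empty vector replicate 1 was left out (0.33, adjusted p = 0.0371).

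The kinase and the phosphatase subunit of the pathway were also near their control levels. Eif2ak3, which encodes PERK, stood at 40.1 and 43.6 against 47.2 and 43.4 CPM (log2 fold change 0.11, adjusted p = 0.417). Ppp1r15a, which encodes the stress-induced subunit GADD34 that reverses eIF2α phosphorylation, stood at 27.4 and 24.1 against 28.9 and 24.7 CPM (0.05, adjusted p = 0.786). For both genes the groups overlapped. Nupr1, a small stress-induced chromatin protein, stood at 45.9 and 41.9 against 43.3 and 42.3 CPM (-0.04, adjusted p = 0.805).

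Among the links to the growth kinase mTORC1, Sesn2, a leucine sensor that restrains it, stood at 27.6 and 30.2 against 27.1 and 26.7 CPM (log2 fold change -0.11, adjusted p = 0.473). Eif4ebp1, which encodes the repressor 4E-BP1 of cap-dependent translation, stood at 128 and 112 CPM with empty vector and at 81.9 and 81.4 CPM with C/EBPβ. Both C/EBPβ libraries were lower, and the log2 fold change was -0.55 (SE 0.09, adjusted p = 0.00298). It was the 1 regulator of 7 that passed, against 24.9% of all tested genes. Its direction and call were kept with each library left out, at values from -0.65 to -0.45.

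Serine is made from a glycolytic intermediate by Phgdh, Psat1 and Psph in turn, and Shmt1 and Shmt2 then split it into glycine and a folate-bound carbon unit. All 5 of these genes fell, against 10.8% of all tested genes. The other 3 genes of the group, the folate enzymes Mthfd1, Mthfd2 and Mthfd1l, did not pass. All 8 were lower in both C/EBPβ libraries than in both controls, as were 32.9% of all tested genes. The median log2 fold change of the 8 was -0.41.

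Phgdh (chr3:98313170-98339990, minus strand), the first enzyme of the pathway, stood at 184 and 187 CPM with empty vector and at 93.3 and 114 CPM with C/EBPβ. This was the largest fall among the members, with a log2 fold change of -0.84 (SE 0.11, adjusted p = 0.000802) that lay between -0.99 and -0.70 when any library was left out. The Phgdh transcript has 2 processed pseudogenes, Gm7901 and Gm9347, at 98.7% and 97.4% identity over 1597 and 1608 bases. They held at most 23 and 13 counts in a library, and reads that fit both gene and copy were not counted, so its level is uncertain. Psat1 (chr19:15904678-15947337, minus strand), the aminotransferase that follows, stood at 395 and 401 CPM against 206 and 284 CPM. The C/EBPβ libraries differed from each other by more than the controls did, and the log2 fold change of -0.70 (SE 0.14, adjusted p = 0.00782) became -0.49 when replicate 1 of C/EBPβ was left out.

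Psph, the phosphatase that completes serine, stood at 54.3 and 48.2 against 38.2 and 41.5 CPM. Its log2 fold change was -0.36 (SE 0.10, adjusted p = 0.0268). Leaving out either first replicate ended this call, at -0.27 (adjusted p = 0.0975) for that of the controls and at -0.30 (adjusted p = 0.184) for that of C/EBPβ. Its transcript shares 452 bases with one of Cct6a, and Shmt1 shares 184 bases with Smcr8. Reads on such stretches that the strand does not resolve were not counted.

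Shmt2, the mitochondrial serine hydroxymethyltransferase, stood at 265 and 276 CPM against 182 and 202 CPM (log2 fold change -0.49, SE 0.09, adjusted p = 0.00469). Shmt1, the cytosolic form, stood at 37.5 and 34.3 against 24.4 and 27.5 CPM (-0.46, SE 0.10, adjusted p = 0.0127). In both genes the controls were above both C/EBPβ libraries. Shmt1 no longer passed with the first control library left out (-0.40, adjusted p = 0.0530) or with the first C/EBPβ library left out (-0.38, adjusted p = 0.0758), while Shmt2 passed with any library left out. Per gene length, the level of Shmt2 was 11.9 and 13.5 times that of Shmt1 with empty vector and 12.5 and 12.4 times with C/EBPβ.

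The folate enzymes showed smaller differences that missed the threshold. Mthfd2, the mitochondrial dehydrogenase and cyclohydrolase of growing cells, stood at 139 and 137 against 117 and 126 CPM (log2 fold change -0.19, adjusted p = 0.135). Mthfd1l, which releases formate from mitochondria, stood at 121 and 132 against 110.0 and 114 CPM (-0.17, adjusted p = 0.170). Mthfd1, the cytosolic enzyme that takes formate up again, stood at 121 and 126 against 113 and 109 CPM (-0.16, adjusted p = 0.194).

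Of the 9 other enzymes, 3 fell, 2 rose and 4 did not pass, with a median log2 fold change of -0.25. Over all tested genes 10.8% fell and 14.1% rose. Chac1 (chr2:119351229-119354381, plus strand), which breaks down glutathione and is a much used readout of ATF4 activity, stood at 34.3 and 32.1 CPM against 20.4 and 21.7 CPM. Both C/EBPβ libraries were lower (log2 fold change -0.66, SE 0.10, adjusted p = 0.00176). Got1 (chr19:43499752-43524605, minus strand), the cytosolic aspartate aminotransferase, stood at 116 and 117 against 69.7 and 79.2 CPM (-0.64, SE 0.09, adjusted p = 0.00127). The calls of Chac1 and Got1 were kept with any library left out.

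Asns, asparagine synthetase, stood at 155 and 156 CPM in the controls and at 110.0 and 124 CPM with C/EBPβ. The groups did not overlap (log2 fold change -0.41, SE 0.09, adjusted p = 0.0113), but Asns did not pass once the first C/EBPβ library was left out (-0.32, adjusted p = 0.136). Gpt2, the mitochondrial alanine aminotransferase, stood at 80.1 and 82.0 against 64.3 and 71.4 CPM (-0.25, adjusted p = 0.0634). Bcat1, the cytosolic aminotransferase of leucine, isoleucine and valine, stood at 138 and 131 against 128 and 129 CPM (-0.07, adjusted p = 0.588).

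The proline genes parted. Aldh18a1, which makes the precursor of proline, stood at 98.6 and 103 against 102 and 98.5 CPM (log2 fold change -0.01, adjusted p = 0.944). Pycr1, which carries out the last step in mitochondria, rose from 11.6 and 10.3 to 18.9 and 16.6 CPM, with no overlap between groups. Its log2 fold change was 0.69 (SE 0.12, adjusted p = 0.00472), and it passed with any library left out.

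The enzymes that turn homocysteine into cysteine were scarce. Cbs, which makes cystathionine, stood at 0.851 and 0.502 CPM (35 and 19 counts) with empty vector and at 3.04 and 1.38 CPM (116 and 127 counts) with C/EBPβ. Both C/EBPβ libraries were higher, and replicate 1 was above replicate 2. The rise (log2 fold change 1.63, SE 0.43, adjusted p = 0.0260) was 1.02 with the first C/EBPβ library left out. It did not pass with the first control library left out (2.07, adjusted p = 0.0636), with the second left out (1.31, adjusted p = 0.144) or in limma-voom (1.45, adjusted p = 0.0554). Cth, which cleaves cystathionine, stood at 6.35 and 6.32 against 4.43 and 5.13 CPM (-0.40, adjusted p = 0.0939).

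Of the 10 transporters, 3 fell, 1 rose and 6 did not pass, with a median log2 fold change of -0.16. The shares over all tested genes were 10.8% lower and 14.1% higher. Slc7a5 (chr8:121881150-121907694, minus strand), the LAT1 carrier of leucine and other large neutral amino acids, stood at 232 and 247 CPM with empty vector and at 140.2 and 159 CPM with C/EBPβ. The groups did not overlap (log2 fold change -0.68, SE 0.09, adjusted p = 0.00126). Slc7a5 passed with any library left out. Slc3a2, the heavy chain with which LAT1 works as a pair, stood at 210.1 and 205 against 189.9 and 194 CPM (-0.11, SE 0.08, adjusted p = 0.340). Stretches of 150 to 173 bases of its transcript match transcripts of several other genes, among them Ilf2 and Npepps, at 97% identity or more. Reads that fit more than 1 place were not counted, so the level of Slc3a2 may be uncertain. Per gene length, the level of Slc7a5 over that of Slc3a2 was 1.05 and 1.15 in the controls and 0.703 and 0.782 with C/EBPβ, a difference between genes that was not tested.

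Slc7a1, the CAT1 carrier of arginine and lysine, stood at 109 and 119 CPM against 83.1 and 82.0 CPM. Both C/EBPβ libraries were lower (log2 fold change -0.46, SE 0.08, adjusted p = 0.00441). Slc38a1, a sodium-coupled glutamine carrier, stood at 132 and 139 against 101 and 106 CPM (-0.40, SE 0.08, adjusted p = 0.00862), and it did not pass once the first C/EBPβ library was left out (-0.36, adjusted p = 0.0807). Its relative Slc38a2, which is known to respond to amino acid shortage, was the most abundant transporter and stood at 632 and 698 against 833 and 784 CPM. Here both C/EBPβ libraries were higher (log2 fold change 0.28, SE 0.10, adjusted p = 0.0761), and it passed with DESeq2 (adjusted p = 0.0223) and with no filter on low counts (adjusted p = 0.0305).

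The exchangers of the SLC1 family also differed. Slc1a4, the ASCT1 carrier of alanine, serine and cysteine, stood at 69.5 and 68.8 CPM in the controls and at 115 and 99.2 CPM with C/EBPβ. The groups were apart (log2 fold change 0.63, SE 0.09, adjusted p = 0.00176). The rise passed with any library left out. Slc1a5, the glutamine exchanger ASCT2, stood at 45.6 and 46.2 against 38.3 and 40.8 CPM (-0.21, adjusted p = 0.111).

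Of the remaining carriers, Slc7a11, the cystine importer xCT, stood at 5.69 and 6.42 against 5.22 and 4.03 CPM (log2 fold change -0.41, SE 0.18, adjusted p = 0.137). Slc6a9, a glycine carrier, stood at 28.1 and 27.5 against 29.6 and 28.3 CPM (0.06, adjusted p = 0.702). The Slc6a9 transcript shares 1261 bases with one of Ccdc24. Reads there that the strand does not resolve were not counted, so the level of Slc6a9 may be uncertain. Slc7a3, a cationic carrier, had 30 and 11 counts against 27 and 65 (0.729 and 0.291 against 0.708 and 0.707 CPM), too few to show a difference of this size (0.45, SE 0.40, adjusted p = 0.455).

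**Figure D2:**
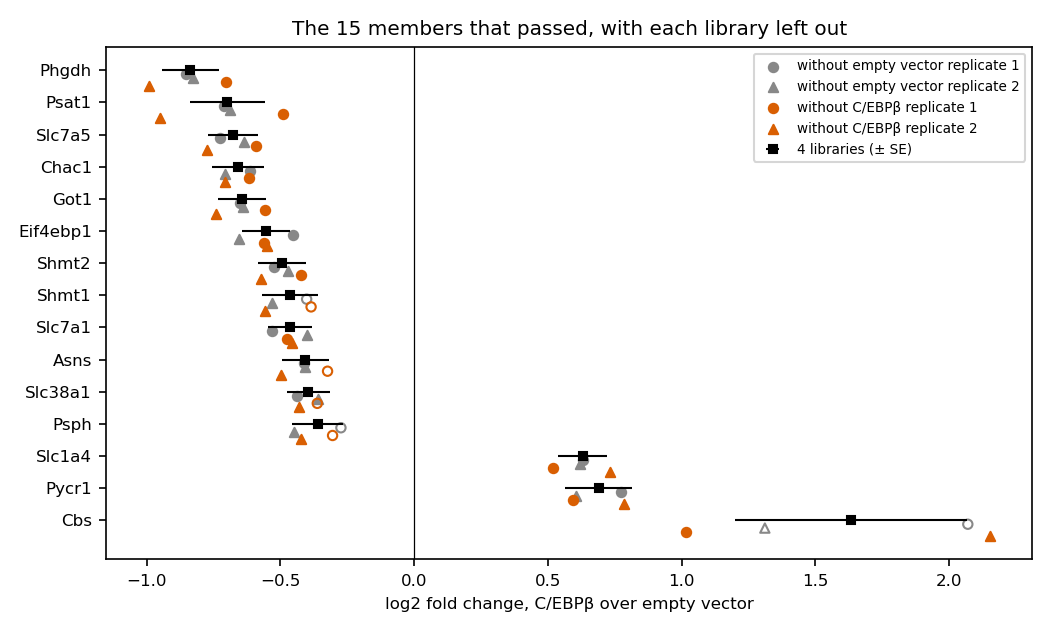
Log2 fold changes (x axis) of the 15 members that passed, with 4 libraries (black, bar ± SE) and with each library left out; filled symbols passed the test and open ones did not. All stay on their side of 0, and open symbols stand at Shmt1, Asns, Slc38a1, Psph and Cbs.

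In 13 of the 15 members that passed, C/EBPβ replicate 1 lay farther from the controls than replicate 2, the exceptions being Eif4ebp1 and Slc7a1. This order was not particular to the members. Among the cell type markers that passed, replicate 1 was also the farther one except at Myf5 and Pi16. The share over all tested genes was not computed. Cebpb itself was at nearly the same level in both C/EBPβ libraries, and replicate 2 was the more deeply read. Whether either bears on the difference between replicates 1 and 2 was not tested. Calls of 8 of the 12 members that fell (Phgdh, Psat1, Shmt2, Chac1, Got1, Eif4ebp1, Slc7a1 and Slc7a5) and of 2 of the 3 that rose (Pycr1 and Slc1a4) were kept in all 10 alternatives run. How large a share of all genes that passed kept their calls was not computed, so these counts have no background beside them.

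Per gene length, the members were mostly abundant in control cells. Their median level was 17.5 RPKM (CPM per kilobase of exons) with empty vector, against 5.48 RPKM over all tested genes, and 28 of the 34 were above that median. Atf4 led with 263 ± 4.68 RPKM (SD, n = 2), followed by Slc38a2 with 144 ± 10.1 and Shmt2 with 117 ± 3.13. At the low end were Slc7a11 with 0.435 ± 0.0373, Cbs with 0.202 ± 0.0738 and Slc7a3 with 0.135 ± 0.0820 RPKM. In C/EBPβ cells Atf4 stood at 269 ± 11.4, Slc38a2 at 175 ± 7.45 and Shmt2 at 83.2 ± 6.18 RPKM.

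**Figure D3:**
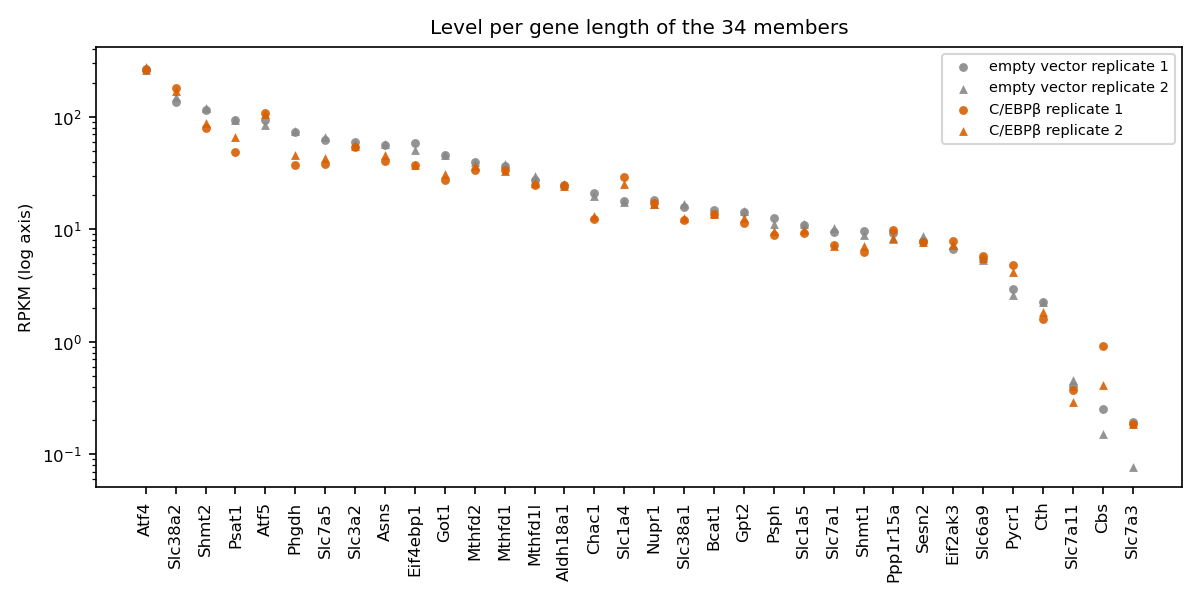
Level per gene length (RPKM, log axis) of the 34 members in each of the 4 libraries, ordered by the empty vector mean. Atf4 is at the left with 263 RPKM and Slc7a3 at the right with 0.135 RPKM. The libraries of 1 group lie close together for most members. Gaps are wider at the lowest levels and at Psat1, where the C/EBPβ libraries stand at 48.5 and 66.7 RPKM.

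The authors' deposited table of C/EBPβ overexpression in growth medium does not state which libraries entered it, and its base mean over the mean CPM computed here ranged from 26.7 to 71.9 between members, so it may not rest on these 4 libraries alone. The authors' deposited table gave 14 of the 34 members as lower and 4 as higher at an adjusted p under 0.05. Of its 16596 genes with an adjusted p, 13.6% were lower and 12.4% higher. Its call was the same as here for 31 members. The authors' deposited table also passed Gpt2 (log2 fold change -0.30, adjusted p = 0.0143) and Slc1a5 (-0.25, adjusted p = 0.0390) as lower and Slc38a2 as higher (0.24, adjusted p = 0.0457). Log2 fold changes in the authors' deposited table were below those computed here for all 34 members, by a median of -0.04.

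Other genes of the stress response moved both ways. Of 36 sensors, partners and further targets linked to ATF4, all tested, 9 rose and 8 fell, against 14.1% and 10.8% of all tested genes, with a median log2 fold change of 0.05 that was -0.04 without empty vector replicate 1. Falls in this list were fewer with any single library left out, as they were over all tested genes. Atf3, a stress-induced factor downstream of ATF4, fell from 16.5 and 16.7 to 5.09 and 6.06 CPM (log2 fold change -1.56, SE 0.13, adjusted p = 0.000125). Stc2, a secreted glycoprotein induced by ATF4, fell from 20.7 and 19.7 to 4.56 and 6.35 CPM (-1.87, SE 0.16, adjusted p = 0.000133). In contrast, the pseudokinase Trib2 rose from 3.91 and 4.81 to 30.5 and 32.2 CPM (2.85, SE 0.13, adjusted p = 7.1e-06). The lipoprotein receptor Vldlr rose from 5.11 and 4.10 to 14 and 13.6 CPM (1.58, SE 0.15, adjusted p = 0.000187).

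Some further genes of that list are given because they are commonly read with the members, and were chosen after their values were seen. Trib3, a pseudokinase that feeds back on ATF4, fell from 20.4 and 18.9 to 10.5 and 11.2 CPM (log2 fold change -0.85, adjusted p = 0.000963). Ddit4, an inhibitor of mTORC1 signalling, rose from 58.8 and 62.8 to 107 and 102 CPM (0.78, adjusted p = 0.00034). Ddit3, which encodes CHOP, stood at 41.6 and 38.0 against 39.6 and 40.6 CPM (0.01, adjusted p = 0.938), and Cebpg, a partner of ATF4, at 54.7 and 55.6 against 51.1 and 49.8 CPM (-0.13, adjusted p = 0.286).

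The cytosolic aminoacyl-tRNA synthetases, which load amino acids onto tRNA, and the tRNA exporter Xpot made small moves. Of 21 tested, 6 fell and 1 rose, against 10.8% and 14.1% of all tested genes, and the median log2 fold change was -0.17. In 16 both C/EBPβ libraries were below both controls, as in 32.9% of all tested genes. Sars fell from 328 and 322 to 235 and 247 CPM (-0.43, SE 0.08, adjusted p = 0.00667), and Wars from 107 and 109.7 to 82.2 and 89.5 CPM (-0.34, SE 0.08, adjusted p = 0.0192, but 0.238 without C/EBPβ replicate 1). Farsa was the 1 that rose, from 152 and 139.6 to 199 and 192 CPM (0.43, SE 0.08, adjusted p = 0.0075). Fewer of the list fell with any single library left out, and fewer of all tested genes fell as well.

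Amino acid carriers outside the 34 numbered 27, of which 21 were tested. Of these 8 rose and 2 fell, against 14.1% and 10.8% of all tested genes, with a median log2 fold change of 0.10. Slc1a3, a glutamate and aspartate carrier, rose from 9.82 and 5.42 to 161 and 105 CPM (4.12, SE 0.28, adjusted p = 4.24e-05), and Slc43a2, a carrier of large neutral amino acids, from 15.8 and 12.7 to 42.0 and 34 CPM (1.41, SE 0.14, adjusted p = 0.000297). Slc7a2, like Slc7a1 a carrier of arginine and lysine, was chosen for mention after its values were seen. It rose from 24.6 and 17.5 to 79.1 and 59.3 CPM (1.71, SE 0.18, adjusted p = 0.00034). Per gene length its mean level went from 2.30 to 7.58 RPKM, while that of Slc7a1 went from 9.88 to 7.16 RPKM. Slc16a10, an aromatic amino acid carrier, fell from 4.45 and 5.21 to 2.10 and 2.31 CPM (-1.12, SE 0.18, adjusted p = 0.00265). Slc25a29, a mitochondrial carrier of basic amino acids, stood at 21.9 and 22.3 against 12.9 and 16.7 CPM (-0.57, adjusted p = 0.0164). It did not pass when empty vector replicate 1, empty vector replicate 2 or C/EBPβ replicate 1 was left out. Fewer of all tested genes were lower in those fits too.

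Among 45 other enzymes of amino acid and one-carbon metabolism 41 were tested. Of these 10 rose and 7 fell, against the same 14.1% and 10.8%, with a median log2 fold change of -0.01 whose sign turned with single libraries left out. Odc1, the first enzyme of polyamine synthesis, fell from 98.0 and 90.9 to 60.4 and 57.5 CPM (-0.68, SE 0.08, adjusted p = 0.000665). Gcsh, a subunit of the glycine cleavage system, fell from 35.9 and 34.3 to 23.9 and 25.6 CPM (-0.50, SE 0.09, adjusted p = 0.00578). Sardh, which turns sarcosine into glycine, rose from 14.3 and 12.2 to 30.0 and 25.6 CPM (1.06, SE 0.13, adjusted p = 0.000591), and Ass1, of arginine synthesis, from 119 and 82.5 to 218 and 194 CPM (1.03, SE 0.16, adjusted p = 0.0021). Without C/EBPβ replicate 1, fewer of these enzymes rose and fewer fell. Falls were also fewer with any other library left out, and in each of these fits fewer of all tested genes fell.

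**Figure D4:**
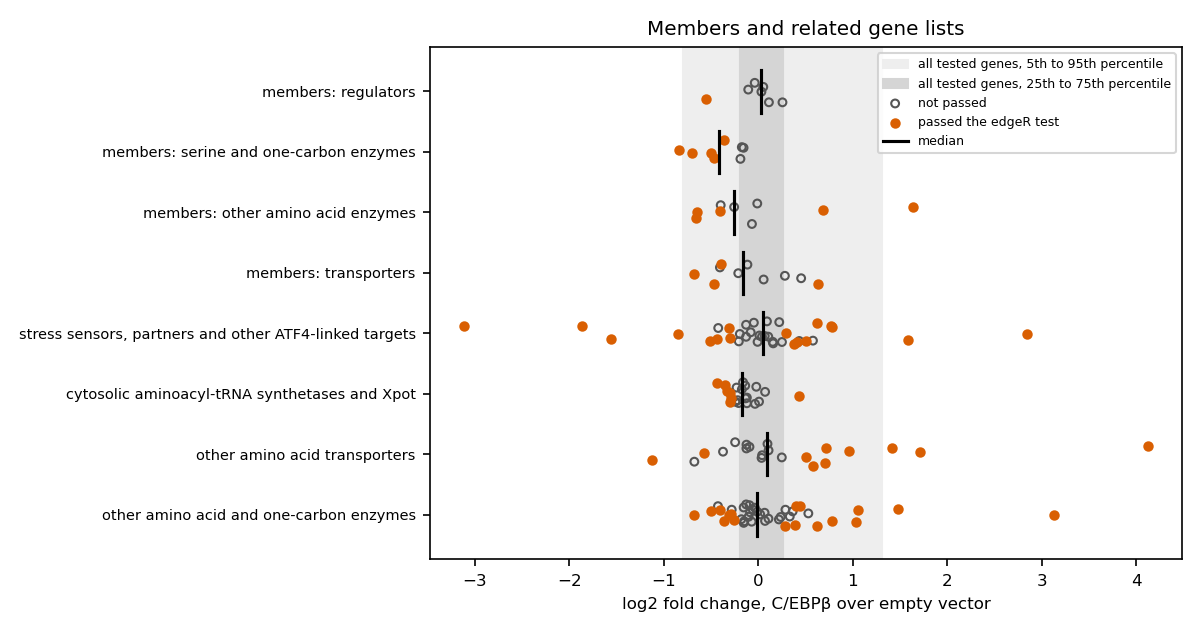
Log2 fold changes of the members by role and of the related lists (points, filled where the gene passed), with each list's median as a black line and all tested genes as grey bands. The serine and one-carbon group has its median at -0.41 and no point right of 0, whereas the other lists have points on both sides.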

How the data were processed

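The authors deposited fragment counts for each gene in whole numbers, obtained per the file headers with featureCounts 1.5.1 in reverse-stranded paired mode on GENCODE M12, with multi-mapping and ambiguous reads not counted. The submitters' processing notes name HISAT2 2.0.4, GRCm38, featureCounts 1.4.6 and DESeq2 (version not given in the sources used here), and the difference in featureCounts version was not settled. The authors' deposited comparison table gives a base mean signal, log2 fold changes with their errors, a score (the ratio of both) and p-values, raw and adjusted. It names no libraries, and its base mean was not used as a level.

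Genes were filtered with filterByExpr (minimum count 10, minimum total 15) and compared with edgeR 4.0.16 in R 4.3.3 (TMM, no covariate, all 4 libraries, calls at 0.05). The SE is the log2 fold change over the root of the quasi-likelihood F. The procedure was also run on simulated counts, drawn with the spread estimated from these 4 libraries. Such counts cannot show how the test performs if the replicates are technical. Alternatives were DESeq2 1.42.0, limma-voom (limma 3.58.1), library totals, other filters, the replicate number as a block, and leaving out each library. Symbols came from the deposited table or the reference gene names. The members, the lists and the naming rule (every member, plus up to 2 called genes per direction from each related list, by adjusted p) were chosen with earlier results of these data known. Near-copies were sought with blastn among GENCODE M21 transcripts (at least 97% identity over at least 150 bases).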

Additional observations from a re-analysis of the deposited data

How the results depend on the processing

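Over the 34 members and 10 alternatives, 314 of 338 values kept their direction and their side of the threshold. The like share over all tested genes was not computed. Calls lost or gained stand beside the genes, except those gained with the block. Signs turned for 5 members that had not passed, over the ranges with single libraries left out: Aldh18a1 (-0.043 to 0.018, with 0.012 without C/EBPβ replicate 2), Ppp1r15a (-0.061 to 0.16, with -0.040 without empty vector replicate 2), Nupr1 (-0.10 to 0.027), Slc7a3 (-0.047 to 1.27) and Atf4 (-0.011 to 0.075). Aldh18a1 also turned, to 0.0055, with the filter of 5 CPM in 2 libraries, which left Cbs and Slc7a3 untested. Ddit3, of the stress genes, ranged from -0.055 to 0.078 with single libraries left out (-0.0063 without C/EBPβ replicate 2) and was -0.0066 with library totals. With a library left out, the remaining sample of that group is assumed to vary like the others. Left out singly, libraries gave 8 to 12 falls and 2 to 3 rises among members (median -0.207 to -0.159), and 966 to 1386 falls and 1527 to 2076 rises over all genes.

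The number of members that rose was 5 with DESeq2, where 13.2% of all tested genes were higher. It was also 5 with the replicate number as a block, where Atf5 and Slc38a2 passed as higher (adjusted p = 0.0492 and 0.0476). The block called more genes in general, with 17.1% of all tested genes higher and 13% lower. Deviations of same-numbered libraries correlated at r = 0.147 across 15078 genes, which are not independent, and with 2 pairs the number alone does not show pairing. The block gave 13 falls among members, the added one being Gpt2 (-0.26, adjusted p = 0.0450).

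In the related lists, the filter of 5 CPM gave 3 falls among synthetases, 1 fall and a median of 0.19 among other carriers, and 4 falls and a median of -0.054 among other enzymes. Under that filter 11% of all tested genes were lower. The other enzymes' median was -0.012 with DESeq2, -0.030 with library totals, -0.0030 with no filter, -0.0086 with limma-voom and -0.0089 with the block. Leaving out single libraries gave, for other enzymes, 5 to 10 rises, 3 to 5 falls and medians of -0.059 to 0.055. For other carriers it gave 1 to 2 falls and medians of 0.063 to 0.16, for synthetases 1 to 5 falls, and for stress genes 5 to 7 falls and medians of -0.040 to 0.096. Over all tested genes the falls were also fewer with any single library left out. The causes were not tested. Depth limits Cbs and Slc7a3, whose counts in single libraries went down to 19 and 11.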
